A study of Homo sapiens with 18 samples.

Results

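MDA-MB-468 and MDA-MB-231 are human cell lines derived from triple-negative breast cancers, and their expression without any drug was compared across 12 of the 18 arrays of the series. The 12 arrays were chosen from the labels: 6 of MDA-MB-468 and 6 of MDA-MB-231, each line with 3 untreated arrays and 3 arrays of cells given the vehicle DMSO, taken at 4, 8 and 24 h. The 6 arrays of cells given the BET bromodomain inhibitor OTX015 were left out. Total RNA was hybridized to Illumina HumanHT-12 v4 bead arrays of 47231 probes. Both lines were grown in DMEM with serum, and each line, vehicle state and time had 1 array, so the 6 arrays of a line served as its replicates; p-values therefore reflect how far these arrays scatter, not how far separate cultures would. Every difference is one between 2 single lines, in which tumour of origin, genotype and long passage in culture cannot be told apart.

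Epithelial cells hold to their neighbours through E-cadherin junctions, tight junctions and desmosomes, and their intermediate filaments are built of keratins. Mesenchymal cells lack most of these contacts, carry vimentin filaments, and secrete matrix and matrix-cleaving enzymes. Carcinoma cells can take up positions between the 2 states, and transcription factors of the SNAI and ZEB families, which bind E-box sequences in the promoters of epithelial genes, are known for driving the shift toward the mesenchymal side. Triple-negative lines are commonly grouped as basal, with basal keratins and often high EGFR, or as mesenchymal-like.

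The largest component of the variation, 84.6% over the 12 arrays, separated the lines, and arrays correlated at 0.956 to 0.998 within MDA-MB-468, 0.991 to 0.997 within MDA-MB-231 and 0.846 to 0.872 between them. Signals are given on the log2 scale after background correction and normalization, and a probe was taken as expressed on an array when it lay above a signal floor set by olfactory receptor probes, which ranged from 6.31 to 6.41. Of 22821 probes above the floor on at least 3 arrays, 4012 (17.6%) were called higher and 3919 (17.2%) lower in MDA-MB-468, the call taking an adjusted p up to 0.05 and a log2 fold change of 0.5 or more in limma with time as a term. Over 12617 named genes, each read at its brightest probe, 2672 (21.2%) were higher and 2461 (19.5%) lower, and 338 (2.68%) and 262 (2.08%) of all genes by 2 or more on the log2 scale. Of the 7931 probes called, 7570 did not overlap between the lines, against 45.5% of all tested probes. The untreated and DMSO arrays of 4 h in MDA-MB-468 stood apart on the second component (9.67% of the variation) and had the highest mean signals of the 12, 452 and 503, against 259 to 336 on the later arrays of that line and 316 to 395 in MDA-MB-231. With the 8 and 24 h arrays alone 7130 of the 7931 probes (89.9%) kept their call. DMSO against untreated cells, with line and time as terms, gave 0 called probes (0%) in limma, with 284 at an unadjusted p under 0.05. That fit had no line by time term, so the 4 h departure in MDA-MB-468 widened its residual. It therefore cannot exclude an effect of DMSO. On the 8 and 24 h arrays alone the count was also 0. Both kinds of array were read together as undrugged cells.

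The 4 genes that mark the lines differed without overlap. CDH1, the gene of E-cadherin, had a lowest, median and highest log2 signal of 10.61, 10.76 and 10.999 in MDA-MB-468, against 5.94, 6.001 and 6.08 in MDA-MB-231, where all 6 arrays lay below the floor. The log2 fold change was 4.80 (standard error 0.07, adjusted p = 7.69e-15). Where a gene lay below the floor on every array of a line, the fold is given as a lower bound. It sets the mean log2 signal of the other line against the mean floor of those arrays, and for CDH1 it was at least 21.7-fold. EPCAM, the gene of an epithelial adhesion molecule, had 12.92, 12.95 and 13.08 in MDA-MB-468, against 9.28, 9.31 and 9.49 in MDA-MB-231. It was expressed on all arrays of both lines, at a log2 fold change of 3.63 with a standard error of 0.05 (adjusted p = 8.19e-15). EGFR, the gene of the epidermal growth factor receptor, had 12.24, 12.31 and 12.45 in MDA-MB-468, against 9.32, 9.37 and 9.53 in MDA-MB-231, a log2 fold change of 2.94 with a standard error of 0.05 (adjusted p = 8.62e-14). VIM, the gene of vimentin, ran the other way, with 8.54, 9.15 and 9.32 in MDA-MB-468, against 13.44, 13.45 and 13.54 in MDA-MB-231. This gave a log2 fold change of -4.43 with a standard error of 0.10 (adjusted p = 6.80e-13), and VIM remained above the floor on all MDA-MB-468 arrays.

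**Figure D1:**
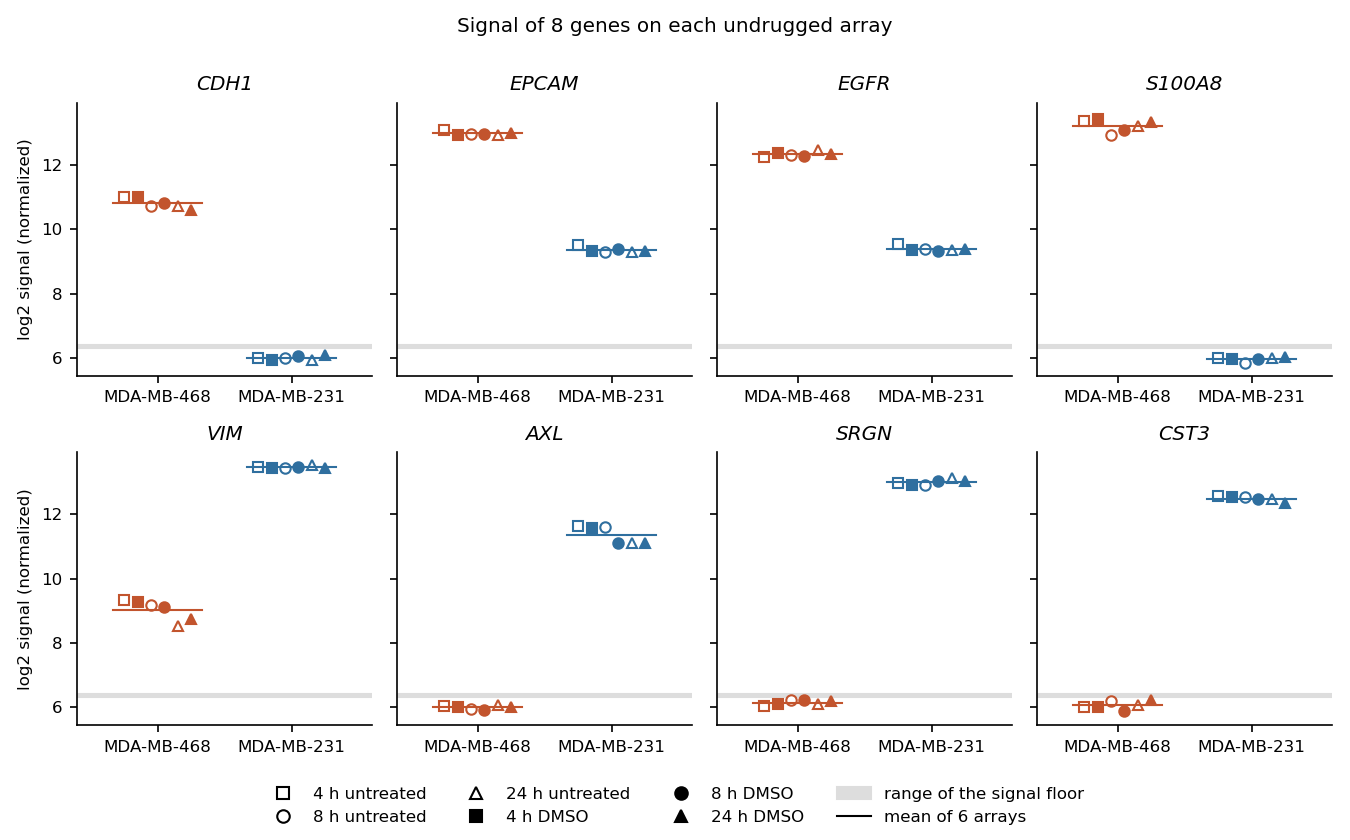
Normalized log2 signal (y axis) of 8 genes on each of the 12 arrays, MDA-MB-468 left and MDA-MB-231 right; symbols give time and treatment, lines the mean of 6 arrays, the grey band the range of the signal floor. CDH1 and S100A8 lay below the floor in MDA-MB-231, AXL, SRGN and CST3 lay below it in MDA-MB-468, and no gene overlapped between the lines.

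The genes with the largest differences upward were MGP, RARRES1, S100A9 and S100A8. MGP, the gene of matrix Gla protein, an inhibitor of calcification, had 13.51, 13.64 and 13.84 (lowest, median and highest log2 signal) in MDA-MB-468, against 6.15, 6.21 and 6.31 in MDA-MB-231, below the floor on all 6 arrays. MGP thus had a log2 fold change of 7.44 with a standard error of 0.07 (adjusted p = 2.46e-16), at least 158-fold. RARRES1, a gene induced by retinoids, had 13.18, 13.30 and 13.54 in MDA-MB-468, against 5.90, 5.995 and 6.10 in MDA-MB-231, at least 126-fold. S100A8 and S100A9 encode the subunits of calprotectin, a calcium-binding heterodimer known from neutrophils and stressed epithelium, and both had a log2 fold change of 7.24, at least 115-fold and at least 116-fold. The other genes at the top were AKR1C2 (6.05), CYP4X1 (6.04), ALDH3B2 (5.81), PI3 (5.62), ALDH1A3 (5.37), KLK5 (5.31), IGFBP5 (5.29) and FBLN1 (5.23), all on the log2 fold change scale. Another AKR1C2 probe had a log2 fold change of only 0.57. Another ALDH3B2 probe had 0.50, with -0.07 at 4 h, and overlapped between the lines. One other FBLN1 probe had a difference of 0.30 at 4 h and 3.76 and 3.77 at 8 and 24 h, and one other KLK5 probe 0.19, 3.71 and 2.99. AKR1C2 reduces steroids, ALDH3B2 and ALDH1A3 oxidize aldehydes, and PI3 encodes the protease inhibitor elafin.

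Downward, SRGN, the gene of the proteoglycan serglycin, had 6.04, 6.15 and 6.24 in MDA-MB-468, all below the floor, and 12.89, 12.999 and 13.13 in MDA-MB-231. The log2 fold change was -6.84 (standard error 0.05, adjusted p = 1.61e-16), at least 100-fold lower. CST3, which encodes the protease inhibitor cystatin C, had 5.89, 6.04 and 6.23 in MDA-MB-468, against 12.34, 12.50 and 12.57 in MDA-MB-231, at least 70.5-fold lower. Next came PAGE5 (-6.30), EMP3 (-5.69), TCEAL9 (-5.66), SPANXA2 (-5.50), MT1E (-5.45), BASP1 (-5.44), COL8A1 (-5.38), AXL (-5.35), IGFBP7 (-5.32) and TXNIP (-5.24). PAGE5 and SPANXA2 belong to cancer-testis families on the X chromosome, AXL encodes the receptor tyrosine kinase for GAS6, and TXNIP encodes an arrestin-like inhibitor of glucose uptake. Of the 600 genes that differed by 2 or more on the log2 scale, 272 lay below the floor on all arrays of the lower line. Among all 12617 genes tested, 1405 lay below the floor on all arrays of either line.

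**Figure D2:**
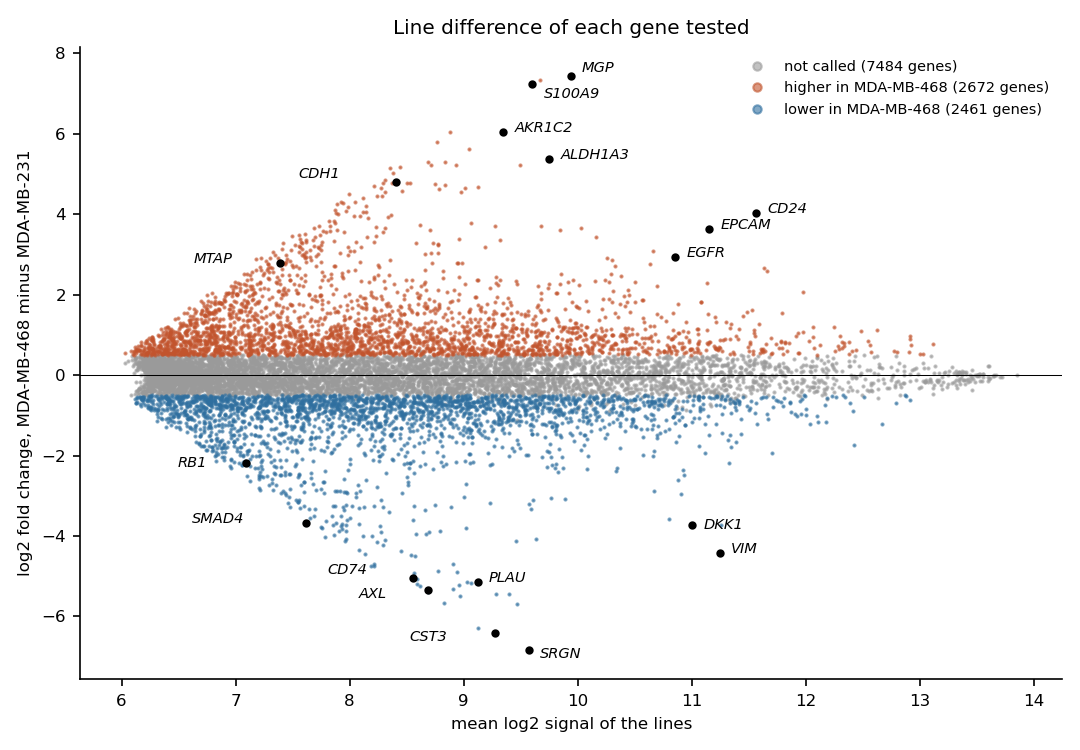
Log2 fold change, MDA-MB-468 minus MDA-MB-231 (y axis), against the mean log2 signal of the lines (x axis) for each of the 12617 genes tested, at its brightest probe. The 2672 genes called higher and 2461 called lower lie on both sides of 0, from SRGN at -6.84 to MGP at 7.44.

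The epithelial genes were mostly higher in MDA-MB-468. Among adhesion and junction genes 87.5% were higher and 3.12% lower, against 21.2% and 19.5% of all genes. Of 32 measured genes of epithelial adhesion and junctions, 28 were higher, 22 of them by 2 or more on the log2 scale, 1 was lower and 3 were not called, and their median log2 fold change was 2.39, against -0.02 over all genes. LAD1, the gene of the basement membrane anchor ladinin, had 11.03, 11.40 and 11.53 in MDA-MB-468, against 6.03, 6.07 and 6.22 in MDA-MB-231, at least 31.2-fold. RAB25, a GTPase gene of epithelial vesicle recycling, was at least 23.1-fold higher, and MUC1, a transmembrane mucin gene, had a log2 fold change of 4.67. Another MUC1 probe had 4.39. A further MUC1 probe had only 1.20 and overlapped between the lines, with 0.13 at 4 h and 1.78 and 1.68 at 8 and 24 h. The tight junction genes CLDN1, MARVELD3, CGN, CLDN7 and CLDN3 had log2 fold changes of 3.25, 2.90, 2.73, 2.04 and 1.76, while CLDN4 had -0.09 and was not called. Of the desmosome genes, JUP had 3.39, DSC3 2.37, DSP 2.30, PKP3 0.65 and PKP2 0.62, and DSG2, with -0.65, was the 1 lower gene. ST14, a membrane protease gene, and its inhibitor gene SPINT1 had 3.69 and 2.22.

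Of 14 measured regulators of epithelial transcription and splicing, 13 were higher and none lower (median 1.58). These shares were 92.9% and 0%, against 21.2% and 19.5% of all genes. FOXA1, a pioneer factor of luminal and secretory epithelia, had 10.23, 10.56 and 10.72 in MDA-MB-468, against 6.62, 6.93 and 7.09 in MDA-MB-231, a log2 fold change of 3.61. OVOL2, a repressor of mesenchymal genes, was below the floor in MDA-MB-231 and at least 8.01-fold higher. ELF3, an epithelial ETS factor, had 3.29, GRHL2, a factor of epithelial junction genes, 2.75, the AP-2 genes TFAP2A and TFAP2C 2.59 and 2.13, and ESRP1, the splicing regulator of epithelial isoforms, 1.59. Of 7 measured transcription factors of epithelial-mesenchymal transition 4 were lower and 1 higher (57.1% and 14.3%, against 19.5% and 21.2% of all genes). The other 2 were not called, and the median was -0.59. That median turned to 0.95 when a probe had to lie above the floor on all 12 arrays, a filter that leaves TCF3 as the 1 gene of the list. SNAI2 had 5.82, 5.83 and 5.92 in MDA-MB-468, below the floor, and 9.45, 9.58 and 9.96 in MDA-MB-231, at least 9.97-fold lower. ZEB1 was at least 1.62-fold and ZEB2 at least 1.19-fold lower, both below the floor in MDA-MB-468. ZEB2 was past the fold change minimum by little, and without background correction it had -0.46. TCF3, which encodes the E proteins E12 and E47, had 0.95.

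Promoters were read for the called genes of these lists as far as the RefSeq table holds them, 300 bases each around the start, most of them before it (GRCh38.p14). The E-box CAGGTG or its reverse complement CACCTG, the sequence bound by SNAI and ZEB factors, occurred in 9 of 17 promoters of the higher adhesion and junction genes (52.9%), in 3 of 9 of the higher regulators (33.3%) and in 2 of 14 of the lower mesenchymal genes (14.3%), against 20.6% of all 27305 promoters of the table. The TEAD motif GGAATG or CATTCC occurred in 2 of 17, 2 of 9 and 0 of 14, and in 2 of 7 promoters of the lower YAP-TEAD target and caveola genes (28.6%), against 14.3% of all. The E-box occurred in 1 of those 7, and of 3 promoters of higher keratins 1 held the E-box and 1 the TEAD motif. These are letters in a window and not measured sites. Shown are the junction genes with 5 and 3 E-boxes (CRB3, a polarity gene with a log2 fold change of 2.86, and AP1M2, an epithelial clathrin adaptor gene with 1.81), LAD1 and RAB25 with 2 each, and VIM, which is lower in MDA-MB-468 and has none. The promoters shown were picked by hand and do not stand for their lists. The higher junction genes CLDN1, CLDN7 and JUP hold no E-box, while the lower genes AXL and S100A4 hold 1 each. The RefSeq promoters did not include CDH1 and EPCAM. Capitals mark the E-boxes, and each promoter runs 5′ to 3′ on the strand of its gene.
CRB3, chr19:6464021-6464320, plus strand: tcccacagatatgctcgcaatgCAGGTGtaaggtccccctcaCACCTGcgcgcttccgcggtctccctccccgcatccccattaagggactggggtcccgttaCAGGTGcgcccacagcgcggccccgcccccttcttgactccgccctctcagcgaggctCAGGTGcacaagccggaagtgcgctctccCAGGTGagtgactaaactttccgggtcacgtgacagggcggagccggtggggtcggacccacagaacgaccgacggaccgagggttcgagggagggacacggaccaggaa
AP1M2, chr19:10587263-10587562, minus strand: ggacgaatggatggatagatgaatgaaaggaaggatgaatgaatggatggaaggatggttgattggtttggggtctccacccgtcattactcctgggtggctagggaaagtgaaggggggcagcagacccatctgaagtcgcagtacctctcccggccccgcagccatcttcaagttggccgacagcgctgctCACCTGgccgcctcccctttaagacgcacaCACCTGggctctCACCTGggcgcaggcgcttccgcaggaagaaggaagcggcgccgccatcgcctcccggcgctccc
LAD1, chr1:201399275-201399574, minus strand: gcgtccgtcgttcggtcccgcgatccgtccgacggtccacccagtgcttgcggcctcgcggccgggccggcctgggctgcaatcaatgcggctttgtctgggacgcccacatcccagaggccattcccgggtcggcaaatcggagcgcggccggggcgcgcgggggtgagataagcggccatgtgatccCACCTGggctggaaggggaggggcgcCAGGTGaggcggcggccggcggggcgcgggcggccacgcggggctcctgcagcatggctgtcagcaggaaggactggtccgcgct
RAB25, chr1:156060910-156061209, plus strand: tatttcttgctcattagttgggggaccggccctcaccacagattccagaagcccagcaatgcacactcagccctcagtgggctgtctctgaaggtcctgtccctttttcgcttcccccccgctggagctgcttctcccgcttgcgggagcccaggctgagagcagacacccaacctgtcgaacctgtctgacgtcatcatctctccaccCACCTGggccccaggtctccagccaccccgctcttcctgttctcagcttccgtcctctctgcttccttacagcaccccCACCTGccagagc
VIM, chr10:17227991-17228290, plus strand: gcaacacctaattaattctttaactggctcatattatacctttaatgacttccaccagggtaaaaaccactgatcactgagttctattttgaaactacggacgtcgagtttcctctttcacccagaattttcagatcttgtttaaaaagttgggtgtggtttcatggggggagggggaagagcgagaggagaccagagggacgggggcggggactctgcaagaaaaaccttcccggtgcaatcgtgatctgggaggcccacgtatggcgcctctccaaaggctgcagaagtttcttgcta

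Of 25 measured mesenchymal and cytoskeletal genes, 19 were lower in MDA-MB-468 and 3 higher (76% and 12%, against 19.5% and 21.2% of all genes). Another 3 were not called, and the median log2 fold change was -0.94. AXL had 5.93, 6.01 and 6.08 in MDA-MB-468, against 11.11, 11.35 and 11.63 in MDA-MB-231, at least 32.4-fold lower, and CDH11, a mesenchymal cadherin gene, was at least 12.8-fold lower. LGALS1, the gene of galectin-1, had -3.72, S100A4 -2.96, ACTA2 -0.94 and the N-cadherin gene CDH2 -0.59. The 3 higher members encode actin-binding tropomyosin (TPM1, 2.29) and caldesmon (CALD1, 1.05) and the ectonucleotidase CD73 (NT5E, 0.74). Of 22 measured genes of YAP-TEAD targets and caveolae 10 were lower and 2 higher (45.5% and 9.09%, median -0.42). The caveola coat genes CAVIN3, CAVIN2 and CAVIN1 had -4.92, -3.76 and -2.48, and CAV1, the gene of caveolin-1, had -2.18. The YAP target genes CCN1 and CCN2 had -1.08 and -0.98, while the coactivator genes YAP1 and WWTR1, with 0.30 and -0.10, were not called.

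Matrix genes were divided. Of 39 measured collagens, laminins and matrix proteins, 20 were lower, 7 higher and 12 not called (median -0.56). The shares lower and higher were 51.3% and 17.9%, against 19.5% and 21.2% of all genes. COL8A1 was below the floor in MDA-MB-468 and at least 32.9-fold lower, COL13A1 had -3.90, the laminin gene LAMB3 -3.18, COL5A1 -2.47, the hyaluronan synthase gene HAS2 -1.78 and the crosslinking enzyme gene LOX -1.69. Against these, MGP and the fibulin gene FBLN1 were among the 12 genes with the largest log2 fold change upward, and COL5A2 had 2.22 and COL9A2 1.52. Of 23 measured matrix proteases and inhibitors, 15 were lower and 5 higher (65.2% and 21.7%), with a median of -1.37. PLAT, the gene of tissue plasminogen activator, had 6.16, 6.36 and 6.56 in MDA-MB-468, above the floor on 3 of 6 arrays, and 11.48, 11.55 and 11.68 in MDA-MB-231, a log2 fold change of -5.22. PLAU, the gene of urokinase, had 6.42, 6.57 and 6.69 in MDA-MB-468, against 11.60, 11.67 and 11.89 in MDA-MB-231, a log2 fold change of -5.15. Neither gene overlapped between the lines, and PLAUR, the urokinase receptor gene, had -1.49. The metalloproteinase inhibitor genes TIMP3, TIMP2 and TIMP1 had -4.01, -3.06 and -1.75. MMP7, the gene of the epithelial protease matrilysin, had 9.58, 9.89 and 10.22 in MDA-MB-468, against 5.67, 5.83 and 5.95 in MDA-MB-231, at least 11.8-fold higher. MMP1 had -1.91 and MMP14 -0.63. Of 17 measured integrins 6 were lower, among them ITGA3 (-2.30), ITGA2 (-2.19) and ITGA5 (-2.10), and 3 were higher, with ITGAV at 1.71. These shares were 35.3% and 17.6%, against 19.5% and 21.2% of all genes.

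**Figure D3:**
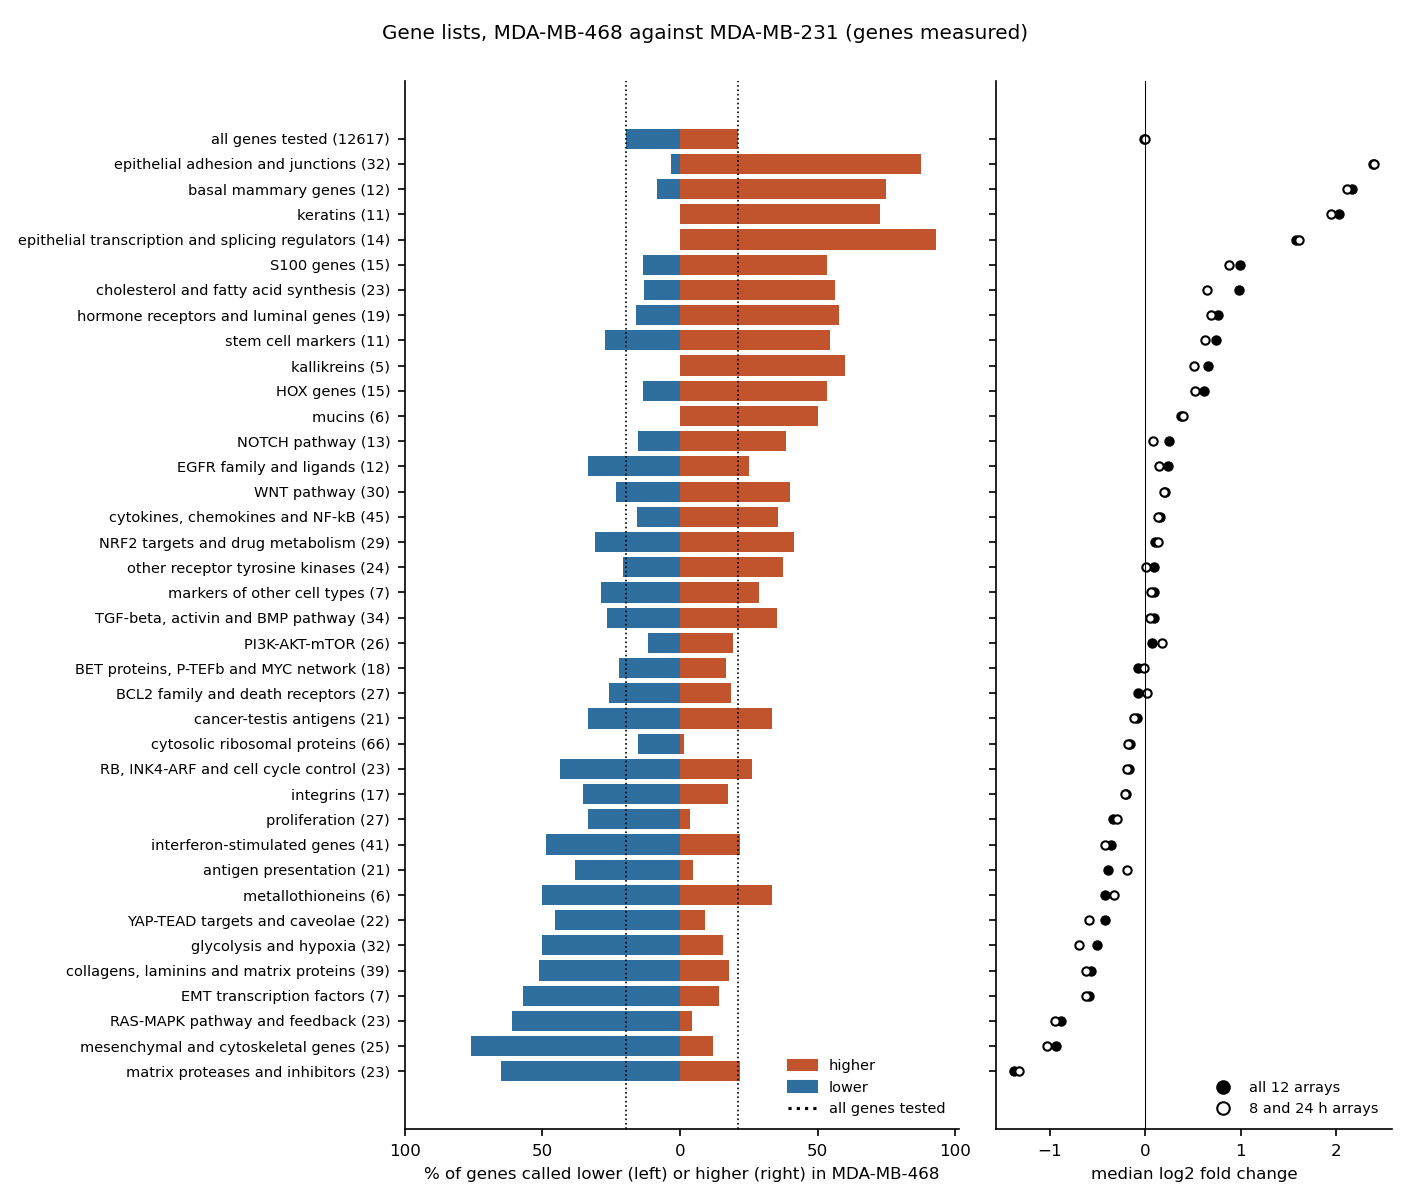
Percentage of each list's measured genes called lower (bars to the left) or higher (bars to the right) in MDA-MB-468, dotted lines giving all genes tested, and the median log2 fold change on all 12 arrays (filled) and on the 8 and 24 h arrays (open). The lists run from epithelial adhesion and junctions, median 2.39, to matrix proteases and inhibitors, median -1.37.

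Keratins were higher in MDA-MB-468 at 8 of 11 measured genes and lower at none (median 2.03). The shares were 72.7% and 0%, against 21.2% and 19.5% of all genes. KRT5, the keratin of basal cells, had 9.90, 10.08 and 10.18 in MDA-MB-468, against 5.69, 5.78 and 5.83 in MDA-MB-231, at least 13.1-fold. KRT23 was at least 19.9-fold higher, KRT7, KRT19 and KRT8 had log2 fold changes of 2.27, 2.08 and 1.81, and KRT18, with -0.46, was not called. Of 12 measured basal mammary genes 9 were higher and 1 lower (75% and 8.33%, median 2.16). SFRP1, the gene of a secreted WNT antagonist, was at least 23.6-fold higher, and CDH3, the P-cadherin gene, at least 10.1-fold. The small heat shock gene CRYAB had 3.48. Luminal genes were also mostly higher, 11 of 19 with 3 lower (57.9% and 15.8%, median 0.77). AZGP1, which encodes a secreted zinc-binding glycoprotein, was at least 10.6-fold higher, MYB had 1.93, XBP1 1.52 and GATA3 0.82, and ESR1, the oestrogen receptor gene, had 0.56. ERBB2, with 0.21, was not called.

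Of 11 measured stem cell markers 6 were higher and 3 lower (median 0.74). These shares were 54.5% and 27.3%, against 21.2% and 19.5% of all genes. ALDH1A3 had 12.21, 12.39 and 12.72 in MDA-MB-468, against 7.01, 7.03 and 7.199 in MDA-MB-231, a log2 fold change of 5.37 with a standard error of 0.07 (adjusted p = 7.87e-15). PROM1, the gene of CD133, had 10.90, 11.20 and 11.57 in MDA-MB-468, against 6.29, 6.46 and 6.61 in MDA-MB-231, a log2 fold change of 4.73. CD24, a surface sialoglycoprotein gene, had 13.52, 13.57 and 13.64 in MDA-MB-468, against 9.38, 9.57 and 9.67 in MDA-MB-231, a log2 fold change of 4.03, while CD44, with 0.46, was not called. KLF4 and ABCG2 had -1.07 and -0.87. Of 15 measured S100 genes 8 were higher and 2 lower (53.3% and 13.3%). S100A7, the gene of psoriasin, was at least 18.3-fold higher, and the lower members were S100A4 and S100A6, at -2.96 and -1.17. Of 5 measured kallikreins, secreted serine proteases, 3 were higher (60%) and none lower. KLK5 was at least 31.5-fold and KLK6 at least 13.1-fold higher, though the second tested probe of KLK6 was not called, and KLK8 had 0.66 and fell short of the minimum without background correction, with 0.44. Of 15 measured HOX genes 8 were higher, led by HOXB7 (2.49) and HOXC13 (2.41), and 2 lower, HOXD1 (-2.01) and HOXD4 (-0.61). The HOX shares were 53.3% and 13.3%, against 21.2% and 19.5% of all genes. Of the 6 measured mucins MUC1, MUCL1 and MUC15 were higher (50%), the last at 0.65, or 0.48 without background correction, and none was lower.

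Of 12 measured genes of the EGFR family and its ligands 3 were higher and 4 lower in MDA-MB-468 (25% and 33.3%, against 21.2% and 19.5% of all genes). EGFR and ERBB3, a receptor partner of the family, had log2 fold changes of 2.94 and 2.40, and LRIG1, a gene of a negative regulator of these receptors, had 2.04. The second tested probe of ERBB3 was not called. The ligand gene NRG1 had 5.82, 5.86 and 5.98 in MDA-MB-468, below the floor, and 9.31, 9.44 and 9.49 in MDA-MB-231, at least 8.46-fold lower. HBEGF had 6.99, 7.14 and 7.32 in MDA-MB-468, against 10.25, 10.34 and 10.49 in MDA-MB-231, a log2 fold change of -3.23, and EREG had -0.51. EGF and TGFA, with 0.48 and -0.40, were not called. The fourth lower gene was ERRFI1, which encodes a feedback inhibitor of EGFR, at -0.84. Among 24 other receptor tyrosine kinases and their ligands 9 were higher and 5 lower (37.5% and 20.8%, against 21.2% and 19.5% of all genes). DDR1, a collagen receptor gene, had 3.17, the ephrin gene EFNA1 3.69 and EPHA1 2.06. Another DDR1 probe had only 0.81. AXL and its ligand gene GAS6 had -5.35 and -3.87, EPHA2 had -1.83, and MET, with -0.04, was not called.

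The RAS-MAPK list had 14 lower genes and 1 higher among 23 measured, with a median log2 fold change of -0.89. These shares were 60.9% and 4.35%, against 19.5% and 21.2% of all genes. The lower members include genes that ERK signalling is known to induce. DUSP6, the gene of an ERK phosphatase, had 7.93, 8.07 and 8.21 in MDA-MB-468, against 11.08, 11.13 and 11.33 in MDA-MB-231, a log2 fold change of -3.10 with a standard error of 0.05 (adjusted p = 1.87e-14). PHLDA1 had -3.59, the AP-1 subunit gene FOSL1 -3.35, DUSP4 -2.65, the feedback inhibitor genes SPRY4 and SPRY2 -2.53 and -1.36, and the ETS genes ETV5 and ETV4 -1.43 and -1.35. The second tested probes of PHLDA1 and DUSP4 were not called. The higher member was MAPK3, the gene of ERK1, at 0.64. In the PI3K-AKT-mTOR list 5 of 26 measured genes were higher and 3 lower (19.2% and 11.5%, against 21.2% and 19.5% of all genes). IRS1 and IRS2, adaptor genes of the insulin receptor, had -2.15 and -0.99, FOXO3 had 1.11 and PIK3CB, a catalytic subunit gene, 1.02.

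In the list of RB, INK4-ARF and cell cycle control 6 of 23 measured genes were higher and 10 lower in MDA-MB-468 (median -0.17). These shares were 26.1% and 43.5%, against 21.2% and 19.5% of all genes. RB1, the gene of the retinoblastoma protein that holds E2F factors in check, had 5.91, 5.99 and 6.14 in MDA-MB-468, below the floor on all 6 arrays, and 7.98, 8.18 and 8.33 in MDA-MB-231. The log2 fold change was -2.20 (standard error 0.06, adjusted p = 3.67e-12), at least 3.59-fold lower. CDKN2A, the gene of p16 and ARF, had 7.54, 8.39 and 8.58 in MDA-MB-468, against 5.79, 5.89 and 5.95 in MDA-MB-231, below the floor and at least 3.51-fold higher in MDA-MB-468. CDKN2B, the gene of p15, was at least 3.48-fold higher and MTAP, a gene of methylthioadenosine salvage, at least 5.37-fold. CCNE1, the cyclin E gene, had 1.89 and RBL2, an RB relative, 1.66, while the D-type cyclin genes CCND2, CCND1 and CCND3 had -2.11, -1.80 and -1.35, CDK6 had -1.09 and CDKN1A, the gene of p21, -0.98. Of 27 measured proliferation genes 9 were lower and 1 higher (33.3% and 3.7%, median -0.33). CCNB1 had -1.37, AURKB -1.20, MKI67 -1.02 and MCM4 -0.91, and without the 4 h arrays MKI67 had -0.68 and MCM4 -0.48, MCM4 then being short of the fold change minimum. The higher gene was PCNA, at 0.88.

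Of 18 measured genes of BET proteins, P-TEFb and the MYC network 3 were higher and 4 lower (16.7% and 22.2%, against 21.2% and 19.5% of all genes). BRD2, a bromodomain gene, had 10.28, 10.57 and 10.71 in MDA-MB-468, against 10.74, 10.77 and 10.91 in MDA-MB-231, a log2 fold change of -0.24 with a standard error of 0.06 (adjusted p = 0.00518), below the minimum for a call. BRD3 had -0.56 (standard error 0.27, adjusted p = 0.0904) and overlapped between the lines. Its 4 h arrays in MDA-MB-468, at 6.497 and 6.64, lay under all others of either line, and at 8 and 24 h the log2 fold change was 0.08. MYC had 10.47, 10.57 and 11.44 in MDA-MB-468, against 11.03, 11.11 and 11.29 in MDA-MB-231, a log2 fold change of -0.33 with a standard error of 0.12 (adjusted p = 0.0292). MYC was higher in MDA-MB-468 at 4 h by 0.19 and lower at 8 and 24 h by log2 fold changes of -0.50 and -0.68, and on the 8 and 24 h arrays alone it had -0.59 and was called. That call rests on 1 of 2 probes, since the second MYC probe had -0.16 on 12 arrays and -0.40 at 8 and 24 h and was called on neither. MYCN was at least 3.22-fold higher in MDA-MB-468, below the floor in MDA-MB-231, though its second tested probe was not called. The kinase gene CDK9 had -0.70 and MAX, the partner of MYC, -0.73. BRCA1, the gene of a DNA repair protein, had -0.22 and was not called.

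In the TGF-beta, activin and BMP list 12 of 34 measured genes were higher and 9 lower (median 0.09). These shares were 35.3% and 26.5%, against 21.2% and 19.5% of all genes. SMAD4, the common mediator of these pathways, had 5.69, 5.75 and 5.92 in MDA-MB-468, below the floor on all 6 arrays, and 9.25, 9.45 and 9.68 in MDA-MB-231. The log2 fold change was -3.69 (standard error 0.06, adjusted p = 6.28e-14), at least 8.69-fold lower. TGFBR2, the ligand-binding receptor gene, had -2.34, SMAD3 -0.996, the ligand gene BMP4 -1.98 and FST, the gene of the activin antagonist follistatin, -3.96. The ID genes, known BMP targets, were divided: ID3, ID2 and ID4 had 2.68, 1.80 and 1.39, and ID1, with -0.48, was not called. The pseudoreceptor gene BAMBI had 2.51. Of 30 measured WNT genes 12 were higher and 7 lower (40% and 23.3%), or 10 and 8 on the 8 and 24 h arrays. DKK1, a secreted antagonist gene, had 8.08, 9.21 and 10.17 in MDA-MB-468, against 12.83, 12.85 and 12.93 in MDA-MB-231, a log2 fold change of -3.72. Its difference widened with time, with -2.84, -3.65 and -4.67 at 4, 8 and 24 h. The nuclear factor gene LEF1 had -2.46, and the feedback target gene AXIN2 1.07. In the NOTCH pathway 5 of 13 were higher and 2 lower (38.5% and 15.4%). NOTCH3, a receptor gene, was at least 15.5-fold higher, the ligand genes DLL3 and JAG2 had 3.06 and 0.84, and the targets HES4 and HES1 2.08 and 1.58. The ligand gene JAG1 had -1.50 and LFNG, a modifier of the receptors, -1.85, with 1 of its 2 probes called.

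Genes of MHC class II and part of the interferon response were lower in MDA-MB-468. CD74, the invariant chain of class II, had 5.84, 5.94 and 6.34 in MDA-MB-468, below the floor, and 10.86, 11.11 and 11.18 in MDA-MB-231, at least 26.6-fold lower. HLA-DRA had -3.81, HLA-DPA1 -3.26, HLA-DMB -2.65 and HLA-DMA -2.18, while their transactivator gene CIITA, with -0.28, and the class I genes HLA-B and B2M, with 0.03 and -0.05, were not called. In all 8 of 21 measured antigen presentation genes were lower and 1, HLA-C at 0.52, was higher. These shares were 38.1% and 4.76%, against 19.5% and 21.2% of all genes. Of 41 measured interferon-stimulated genes 20 were lower and 9 higher (48.8% and 22%, median -0.36). IFI16, a DNA sensor gene, had -2.94, IFIT2 and IFIT3 -2.73 and -2.36 and ISG15 -1.17. MX1, an antiviral GTPase gene, had 10.15, 10.25 and 10.63 in MDA-MB-468, against 7.42, 7.56 and 7.64 in MDA-MB-231, a log2 fold change of 2.79, and USP18 had 1.30. Of 45 measured cytokine, chemokine and NF-kB genes 16 were higher and 7 lower (35.6% and 15.6%, against 21.2% and 19.5% of all genes), but on the 8 and 24 h arrays 12 were higher and 10 lower. The transmembrane chemokine genes CXCL16 and CX3CL1 were at least 13.7-fold and at least 6.58-fold higher and TNFSF10, the gene of TRAIL, had 2.07, against -2.86 for IL11, -2.73 for the prostaglandin synthase gene PTGS2 and -2.57 for IL1B. The interleukin genes IL6 and CXCL8 had -0.47, not called, and 0.57. Cancer-testis antigens were divided, 7 higher and 7 lower of 21 (33.3% each, against 21.2% and 19.5% of all genes). XAGE2, MAGEA12, MAGEA6 and MAGEA3 had 4.62, 3.18, 2.79 and 2.35, against -6.30 for PAGE5, -4.08 for SPANXC, -3.87 for SPANXA1 and -2.94 for SSX1, and close copies within the SPANX and MAGE families may share probes.

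Among metabolic lists, 16 of 32 measured genes of glycolysis and hypoxia were lower and 5 higher (median -0.50). These shares were 50% and 15.6%, against 19.5% and 21.2% of all genes. On the 8 and 24 h arrays 19 were lower and 5 higher. SLC2A3, a glucose transporter gene, had -2.50, LDHB, a lactate dehydrogenase subunit gene, -2.02 and ENO2 -1.78. In contrast, PDK3, the gene of a pyruvate dehydrogenase kinase, had 2.35 and EPAS1, the gene of HIF-2 alpha, 1.76. Of 23 measured genes of cholesterol and fatty acid synthesis 13 were higher and 3 lower (56.5% and 13%). Their median was 0.98 on 12 arrays and 0.65 on those of 8 and 24 h. The sterol enzyme genes DHCR7, SC5D, SQLE and HMGCS1 had 2.38, 2.23, 2.05 and 1.89, and FASN, the fatty acid synthase gene, 1.12. FADS1 and FADS2, desaturase genes of polyunsaturated fatty acids, had -3.02 and -0.89. Of 29 measured NRF2 target and drug metabolism genes 12 were higher and 9 lower (41.4% and 31%, against 21.2% and 19.5% of all genes). AKR1B10 was at least 21.1-fold higher and UGT1A6 at least 8.90-fold, against -3.25 for GSTM2 and -2.22 for GSTP1, glutathione transferase genes. Another UGT1A6 probe had only 0.53 and another GSTM2 probe -0.63. The metallothionein genes, whose products bind zinc and copper, split within the family, with MT1F at 3.45 and MT1E at -5.45. Of 6 measured members 2 were higher and 3 lower (33.3% and 50%). Of 27 BCL2 family and death receptor genes 18.5% were higher and 25.9% lower, against 21.2% and 19.5% of all genes. The 5 higher genes include CASP1 (2.86), BID (2.27, with 2 of 3 probes called) and BIK (1.52), and the 7 lower ones the survival gene BCL2L1 at -1.66. Of 66 cytosolic ribosomal protein genes 55 were not called, 10 were lower and 1 was higher. The shares lower and higher were 15.2% and 1.52%, against 19.5% and 21.2% of all genes. The lower genes lay between -0.50 and -0.93 apart from RPS23 at -3.56, and the higher gene was RPL14 at 1.404, whose other probe was called lower, at -0.90.

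The list of markers of other cell types had 7 measured of 21. CD14 had 8.40, 8.44 and 8.64 in MDA-MB-468, against 6.94, 7.03 and 7.28 in MDA-MB-231, a log2 fold change of 1.398, and CDH5 had 0.72 (0.499 without background correction, short of the minimum). CD68 had -0.73 and overlapped between the lines, with 9.70 to 11.38 in MDA-MB-468 and 10.83 to 11.17 in MDA-MB-231, and at its brightest probe it was not called at 8 and 24 h (-0.45). The other CD68 probes did not overlap between the lines and were called lower on 12 arrays, at -3.39 and -1.17, and at 8 and 24 h, at -3.23 and -1.14. MITF had -0.93, and PECAM1, LYZ and ALB, with -0.43, 0.16 and 0.10, were not called. In RNA from whole cultures, fewer cells that express a gene and less RNA per cell cannot be told apart.

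Some differences lay in groups of neighbouring genes, with uncalled genes among them. These genes and windows were chosen after their values were seen, neighbours being the nearest tested genes in RefSeq order, and they are described without a test. EGFR had 5 of its 10 nearest tested neighbours higher in MDA-MB-468 and none lower. Over all genes 21.2% were higher and 19.5% lower. LANCL2 and VOPP1, which follow EGFR on chromosome 7, had log2 fold changes of 3.36 and 3.44. Next came ZNF713 (0.31, not called) and MRPS17 (0.57), then NIPSNAP2, PSPH and CCT6A with 2.24, 2.24 and 1.46. On the other side COBL and GRB10, with -0.13 and 0.18, were not called, while DDC beyond them had 1.23 and was called higher. FIGNL1 and CDC14C, further out, were not called, and SUN3 past them was called higher at 2.46. LANCL2 averaged 10.998 ± 0.34 in MDA-MB-468, against 7.63 ± 0.19 in MDA-MB-231, and VOPP1 averaged 11.88 ± 0.17 in MDA-MB-468, against 8.44 ± 0.16 in MDA-MB-231 (SD, n = 6 each). On chromosome 9 CDKN2A had 5 neighbours higher and none lower of 10, among them MTAP (2.80), KLHL9 (2.45), CDKN2B (2.12) and FOCAD (1.82). MTAP, CDKN2A and CDKN2B were all below the floor on every MDA-MB-231 array. HACD4, between FOCAD and KLHL9, had -0.34, was not called and lay above the floor on all arrays of both lines. IFNW1, CDKN2B-AS1, TUSC1 and LINC03106 were not called either. MYC, itself not called on 12 arrays, also had 5 of 10 neighbours higher, with 2 lower. RB1 and SMAD4, both lower in MDA-MB-468, mostly had neighbours that were not lower. Of the 10 neighbours of RB1 9 were not called and RCBTB2 was lower (-0.88), and of the 10 of SMAD4 3 were higher, 2 lower and 5 not called, with ME2 next to it at 0.83 and MEX3C at 0.45.

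Over 12277 windows of 15 tested genes in chromosome order, 5% had a median log2 fold change below -0.50 and 5% above 0.54. The window from ARMCX1 to BEX3 on the X chromosome had the lowest median of the 8 windows set out, -2.24, with 13 of 15 genes lower and none higher. It holds ARMCX2 (-4.74), ARMCX6 (-4.03), ARMCX1 (-3.98), TCEAL8 (-3.25), BEX1 (-2.71), TCEAL9 (-5.66) and BEX3 (-5.15), related genes of the ARMCX, TCEAL and BEX families. The window from IGSF5 to PDE9A on chromosome 21 had a median of 2.02, with 11 higher and 2 lower. In it TMPRSS2 and TMPRSS3, membrane serine protease genes, had 3.82 and 3.38, MX1 2.79, RIPK4 2.496 and BACE2 2.42, against -2.59 and -1.51 for the trefoil factor genes TFF2 and TFF3. Chromosome 21 as a whole had 57.7% of its 137 genes higher and 6.57% lower, with a median of 0.59, and the other chromosomes had medians from -0.20 (chromosome 17) to 0.26 (chromosome 22). A window on chromosome 5 from PARP8 to PLPP1 had 13 of 15 genes lower, with FST at -3.96, ITGA2 at -2.19 and PLPP1 at -1.82. No DNA copy number was measured.

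**Figure D4:**
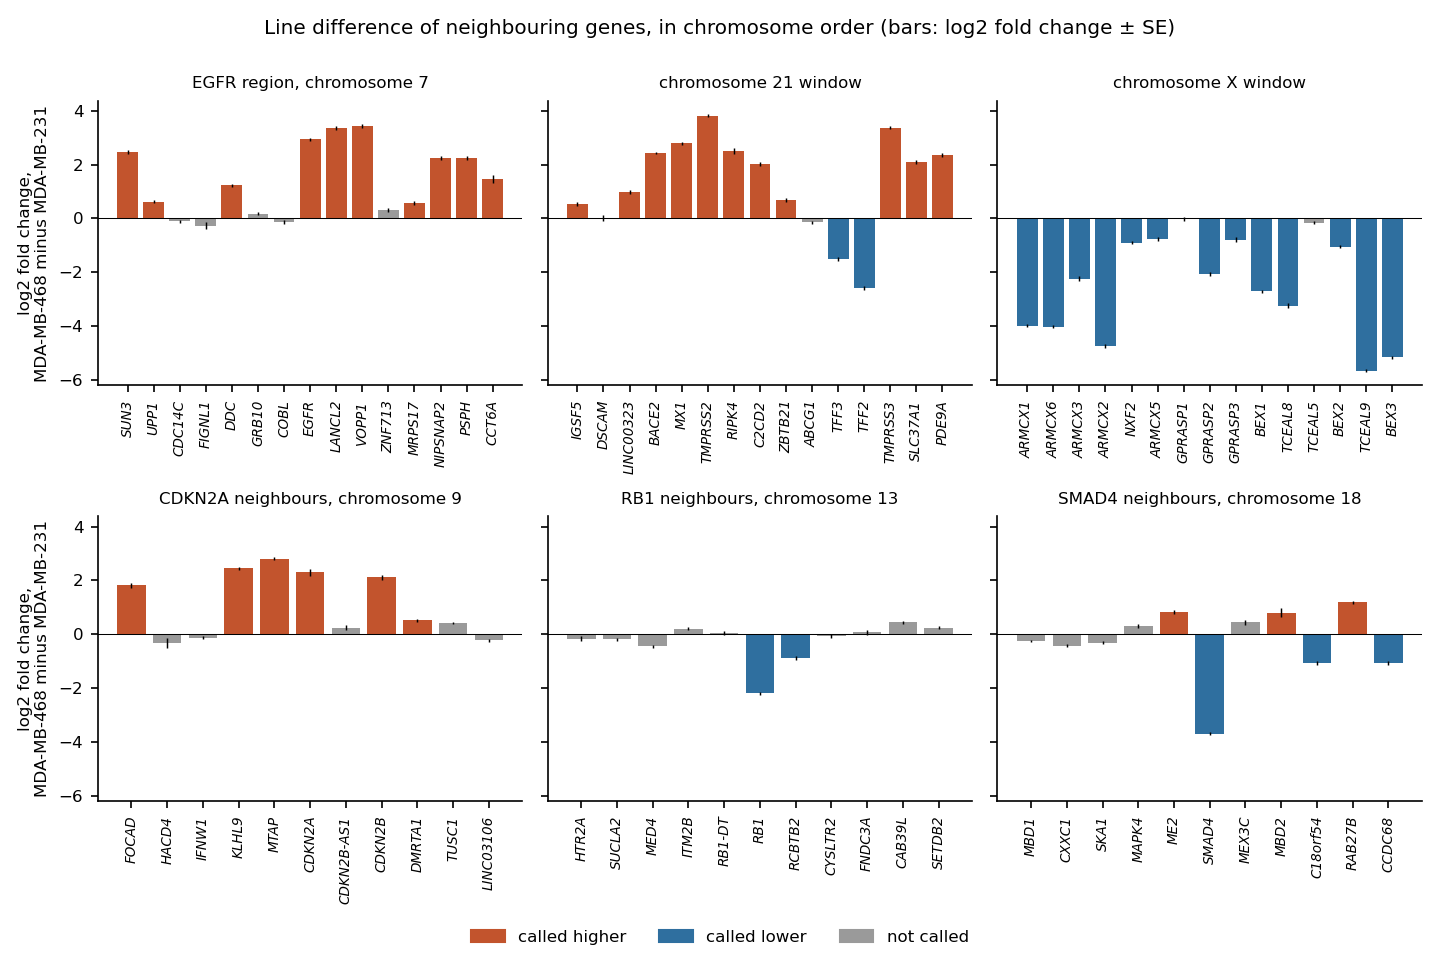
Log2 fold change, MDA-MB-468 minus MDA-MB-231 (y axis, bars with standard errors), of neighbouring tested genes in chromosome order (x axis), coloured by call. The EGFR, CDKN2A and chromosome 21 panels hold several higher genes with uncalled genes among them, and the X panel 13 lower ones. RB1 and SMAD4 differ from most of their neighbours.

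The difference between the lines varied with time at 5650 of 22821 probes (24.8%) in a test of line by time, and on the 8 and 24 h arrays alone at 0 probes (0%), with 1739 at an unadjusted p under 0.05 and a lowest adjusted p of 0.113. The departure lay at 4 h. On the 2 arrays of 4 h in MDA-MB-468 455 probes were lower by over 1 log2 than on all later arrays of the line and 8 were higher, while in MDA-MB-231 0 were lower and 1 was higher. All 455 were among the 5650. The difference at 4 h was below both later ones at 2580 of the 5650 probes and above both at 2903. AP1S1, the gene of a clathrin adaptor subunit, had 6.26 and 6.31 on the 4 h arrays of MDA-MB-468, at or near the floor, and 9.997 to 10.41 on the later ones, against 9.94 to 10.16 in MDA-MB-231 at all times. Its difference between the lines was -3.69 at 4 h, 0.25 at 8 h and 0.08 at 24 h (adjusted p = 3.37e-09). ATG4B, an autophagy protease gene, had 6.001 and 6.10 at 4 h in MDA-MB-468, against 8.91 and 8.98 in MDA-MB-231, and SERF2 had 8.64 and 8.76 in MDA-MB-468, against 11.25 and 11.36 in MDA-MB-231. The second SERF2 probe did not show this, with differences of -0.21, -0.51 and -0.40 at 4, 8 and 24 h (adjusted p = 0.187), so the departure of SERF2 rests on 1 of 2 probes. H2AX, the histone gene of the DNA damage mark, had 6.52 and 6.63 in MDA-MB-468, against 9.23 and 9.29 in MDA-MB-231 at 4 h. SMG9, a gene of nonsense-mediated decay, was lower in MDA-MB-468 at 4 h (-1.54) and higher at 8 and 24 h (1.502 and 1.67). CASP14, the caspase of differentiating keratinocytes, was below the floor in MDA-MB-231 and had 7.03 and 7.18 in MDA-MB-468 at 4 h, 10.96 and 10.93 at 8 h, and 9.57 and 9.98 at 24 h. These 6 genes were chosen by the smallest p for line by time, which favours close pairs of arrays set apart at 1 time. In each of them the untreated and the DMSO array of 4 h lay close together and away from the later arrays of MDA-MB-468. The part that the higher mean signal of these 2 arrays has in this was not tested.

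**Figure D5:**
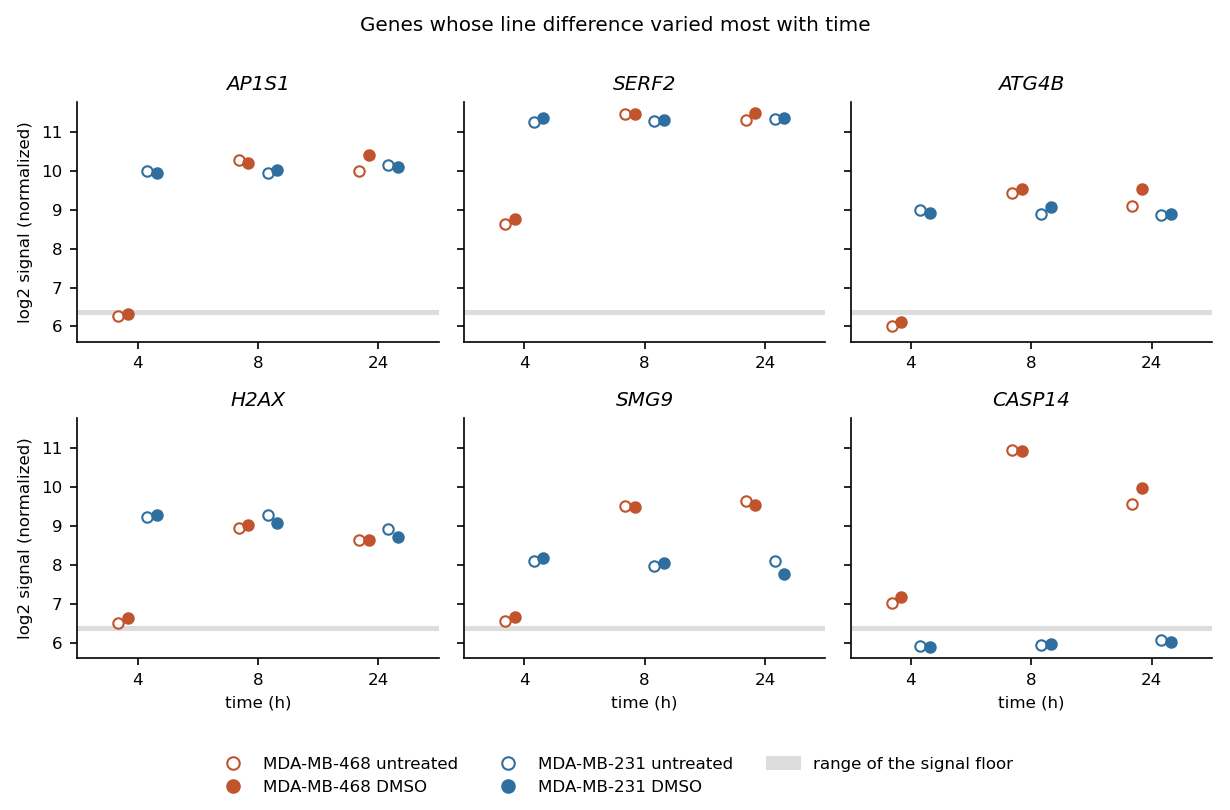
Normalized log2 signal (y axis) at 4, 8 and 24 h (x axis) of the 6 genes with the smallest p for line by time; open points are untreated and filled points DMSO arrays, with the signal floor in grey. At 4 h the MDA-MB-468 arrays of AP1S1 lay at 6.26 and 6.31, against 9.94 to 10.16 on the MDA-MB-231 arrays of all times.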

How the data were processed

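The authors deposited the bead array intensities of all 18 arrays without normalization, on a linear scale, and a second table of log2 values that they had normalized between arrays; GenomeStudio is named in the submitters' processing notes, with no version stated in the sources used here. The intensities were used here. The 12 undrugged arrays were background-corrected with normexp (offset 50), quantile normalized and log2 transformed in limma 3.58.1 (R 4.3.3), and the offset shrinks the fold change of dim probes. The floor was each array's 95th percentile over 455 olfactory receptor probes. Probes above it on at least 3 arrays were fitted with line and time, leaving 8 residual degrees of freedom, and p-values were adjusted by Benjamini-Hochberg over all 22821 probes. The thresholds follow the study's methods. Line by time was a moderated F test with 6 residual degrees of freedom. The number of arrays limits the precision, and the median SD over probes was 0.153 for MDA-MB-468 arrays and 0.0984 for MDA-MB-231 arrays.

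Of 47231 probes 30113 carried 1 gene symbol in the platform annotation, 8 several and 17110 none, and 30074 matched RefSeq. Each gene was read at its brightest probe. Named were the 12 genes with the largest non-overlapping difference in each direction that held at 8 and 24 h, up to 4 of the largest called genes of each of 37 lists, the 4 markers, genes whose basal level the study discusses and the 6 genes with the smallest p for line by time; further list members were named after their values were seen. The members and lists were chosen with earlier results of these data known. Some genes of these lists are not analysed here. On simulated data with 50 probes changed at each size, the fit found 54% of changes of 0.5 log2 and 100% of those of 1, 2 and 4, with 1 false call. The simulated noise was independent between probes and took its spread from the line by time fit, so it left out the 4 h departure. A change of 0.5 lies at the minimum for a call, so many of its estimates must fall short. These shares are therefore not error rates of the real comparison. The alternatives changed the background correction, scaling, filter, model and arrays used. Figures were drawn with matplotlib 3.10.9.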

Additional observations from a re-analysis of the deposited data

Results flagged for a closer look

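Within a line, 12 of 320 sets of 6 values had 1 array far from the other 5; chance alone sets apart about 1 in 20. In MDA-MB-468, EMP3 had 6.33 on the DMSO array of 8 h, against 6.62 to 6.78 on the other arrays. EPCAM had 13.08 on the untreated array of 4 h, against 12.92 to 12.98. On the untreated array of 24 h AURKB had 9.92, against 9.31 to 9.47, and HOXC13 had 8.73, against 9.13 to 9.31.

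In MDA-MB-231, the untreated array of 24 h was high for SPANXA2 (11.89, others 11.66 to 11.72), VIM (13.54, others 13.44 to 13.46) and OVOL2 (5.94, below the floor, others 5.83 to 5.86). The untreated array of 4 h was high for EGFR (9.535, others 9.325 to 9.385) and the DMSO array of 4 h low for ERBB3 (6.34, others 6.63 to 6.76). The DMSO array of 24 h was low for AURKB (10.37, others 10.68 to 10.83) and CD68 (10.83, others 11.13 to 11.17), and high for HES4 (9.54, others 9.14 to 9.27). All are log2 signals.

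In 6 genes the log2 difference of MDA-MB-468 minus MDA-MB-231 at 4 h departed from that at 8 and 24 h in the test of line by time. It was -3.69 at 4 h in AP1S1, against 0.08 to 0.25 later, -2.60 in SERF2, against 0.05 to 0.16, and -2.90 in ATG4B, against 0.43 to 0.49. It was -2.69 in H2AX, against -0.19 to -0.18, -1.54 in SMG9, against 1.502 to 1.67, and 1.21 in CASP14, against 3.73 to 4.999. The second SERF2 probe had -0.21 at 4 h, against -0.51 and -0.40 later (adjusted p = 0.187 in limma), so the departure of SERF2 rests on 1 of 2 probes.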

How the results depend on the processing

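No probe called in the 12-array fit had the opposite call under any alternative run. Of the values of named genes under the alternatives, 4680 kept their side of the threshold, 11 moved past it, 23 fell short of it and 0 reversed. The probes higher in MDA-MB-468 were 4012 of 22821 tested in the main fit. They were 2640 of 13921 when a probe had to lie above the floor on all 12 arrays, which removes genes below it in 1 line. The lower probes were 2758 of those 13921, against 3919 of 22821, so the filter took away tested probes as well as calls. Under that filter probes at least 4-fold higher were 161 (461 without it) and at least 4-fold lower 133 (370 without it), and the median of the transcription factors of epithelial-mesenchymal transition reversed to 0.95. With an offset of 16 they were 767 and 630, and the authors' log2 table gave 238 at least 4-fold lower. Median scaling gave 4706 higher and 3114 lower, 60.2% of calls higher, against 50.6%. Without background correction 3390 were higher and 3307 lower. Probes whose difference varied with time, 5650 in all, were 12947 with median scaling and 0 on the 8 and 24 h arrays. Leaving out 1 array gave 2935 (without the untreated 4 h array of MDA-MB-468) to 9275 (without its 24 h DMSO array), with 3094 without its 4 h DMSO array and 3016 without that of MDA-MB-231; the cause was not tested. With the arrays of the same time and vehicle paired as a replicate block, 4002 probes were higher and 3868 lower. With only the 8 and 24 h arrays of MDA-MB-468 and all of MDA-MB-231, a choice made after seeing the data, 3892 were higher and 4021 lower.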
